A study of Rattus norvegicus with 18 samples.

Results

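Potassium channel genes were examined in cells sorted from the brains of rat pups with antibodies against A2B5 and against O4. Members were all probe sets annotated with 1 gene symbol that begins with Kcn, which gave 125 probe sets for 75 genes, of 13811 genes with 1 symbol on the arrays. Tests were limited to probe sets with a ratio of 1 or more on 4 or more of the 9 arrays that carry them, and 76 Kcn probe sets of 54 genes passed, of 11982 genes that passed in all. The other 21 Kcn genes did not pass and are described near the end.

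A2B5 binds gangliosides on glial progenitors and some neurons, and O4 binds sulfatide and related lipids on late progenitors and oligodendrocytes. All animals were male rats at postnatal day 7, with no genotype, strain or treatment named, and cells of each replicate were sorted by flow cytometry from the pooled whole brains of 1 litter of 10 pups. There were 5 A2B5+ and 4 O4+ replicates, each measured on 2 kinds of array with largely different probe sets, here array A and array B. Values are linear ratios per probe set as deposited, with the median of most probe sets' 9 ratios at exactly 1, so that a probe set can be compared between arrays but not with another probe set. Pooled dissociated brain can carry other cell types into a sort, and in such bulk samples fewer cells of a type and less RNA per cell cannot be told apart.

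Potassium channels set the resting potential and end action potentials. Voltage-gated channels open on depolarisation, inward rectifiers and two-pore channels carry resting currents, calcium- or sodium-activated channels follow ion entry, and auxiliary subunits change the gating or surface level of the pore subunits. Glial progenitors are known for delayed outward currents of the Kv1 family and fast A-type currents of the Kv4 family, and more mature glia for inward rectifier currents that take up potassium released by active axons.

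4 potassium channel genes stood clearly higher in O4+ cells. They were Kcna1, a Kv1 pore subunit, Kcne4, an auxiliary subunit that dampens Kv1 currents, Kcnj12, a strong inward rectifier, and Kcns1, a silent subunit that modifies other voltage-gated channels. The Kv1 subunit Kcna6 joined them on its array B probe set. These 4 are 7.41% of the 54 tested genes, beside 18.7% of all genes tested. 12 genes were lower in O4+ cells, or 22.2% beside 17.6% of all genes, among them the A-type subunits Kcnd2 and Kcnd3, the G protein-gated inward rectifier subunit Kcnj5 and the resting channels Kcnk2, Kcnk6 and Kcnk13.

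To show the regulatory sequence in front of genes on both sides of the comparison, the 250 bases before the start of 3 genes are given 5′ to 3′ on the gene's strand, from the RefSeq promoter table of build GRCr8. Kcna6 and Kcne4 are the genes with the largest array B rises, and Kcnd2 is the gene for which all 3 probe sets fell. The windows were chr4:161262353-161262602 on the minus strand for Kcna6, chr9:87695798-87696047 on the plus strand for Kcne4 and chr4:50742235-50742484 on the plus strand for Kcnd2. Capitals mark any match, on either strand, to CTGGCAC or CTGGTAC, the core letters bound by the myelin gene regulator Myrf, or to ACAAAG or ACAATG, short SOX family letters.
Kcna6: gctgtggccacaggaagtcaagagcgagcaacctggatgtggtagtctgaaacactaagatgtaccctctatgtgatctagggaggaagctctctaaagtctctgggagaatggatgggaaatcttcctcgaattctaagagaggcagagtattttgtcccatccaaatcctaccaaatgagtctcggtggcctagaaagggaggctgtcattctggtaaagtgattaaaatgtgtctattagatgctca
Kcne4: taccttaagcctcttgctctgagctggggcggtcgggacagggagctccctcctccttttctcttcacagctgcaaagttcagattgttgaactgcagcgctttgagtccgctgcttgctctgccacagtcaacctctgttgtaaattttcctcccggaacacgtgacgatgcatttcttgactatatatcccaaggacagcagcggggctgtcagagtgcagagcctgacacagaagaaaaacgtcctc
Kcnd2: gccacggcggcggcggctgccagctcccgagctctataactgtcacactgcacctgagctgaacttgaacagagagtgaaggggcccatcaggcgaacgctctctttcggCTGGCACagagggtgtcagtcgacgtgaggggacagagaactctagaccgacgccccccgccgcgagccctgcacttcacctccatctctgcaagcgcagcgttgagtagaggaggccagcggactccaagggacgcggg
The single match was CTGGCAC in the Kcnd2 window, 140 bases before the start. Of 33469 windows of the same length, 3.78% held CTGGCAC, 1.78% CTGGTAC, 16.3% ACAAAG and 11.1% ACAATG. The table held 52 of the 75 Kcn genes and 13 of the 16 genes called on both scales below. A match is a string of letters and not a binding site, and the windows without one show only that these letters are not in them.

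O4+ was compared with A2B5+ with limma on log2 ratios, 1 row per gene, in which the mean of a gene's tested array A probe sets was used where there was one and that of array B otherwise. Differences are O4+ minus A2B5+ on the log2 scale with the standard error of the fit, n = 4 and 5, and a gene is called at an adjusted p (Benjamini-Hochberg over all genes tested) under 0.05. 17 of 54 Kcn genes were called higher and 12 lower, or 31.5% and 22.2%, beside 28.8% and 17.8% of all genes tested. On array A, however, the median of all tested probe sets was itself 0.17 higher in O4+ arrays, and it was 0.0024 higher on array B. With each array centred on that median, 4 Kcn genes were called higher and 13 lower, or 7.41% and 24.1%, beside 18.7% and 20.4% of all genes. The same call on both scales was made for 4 genes higher and 12 lower, beside 18.7% and 17.6% of all genes. The median Kcn difference was 0.24 uncentred and 0.11 centred, and over all genes it was 0.14 and 0.03. Without centring, 38 of the 54 genes had an unadjusted p under 0.05, as had 6526 of the 11982.

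Groups that did not overlap were found for 23 Kcn genes with O4+ above and 7 with O4+ below, beside 27.6% and 13.5% of all genes, and on centred arrays for 11 and 11, beside 19.4% and 16.9%. The filter bears on these counts. Of the 76 tested probe sets, 40 were at or above 1 on every O4+ array and on exactly 1 A2B5+ array, so that they passed almost wholly through O4+ arrays. The probe sets of Kcna1, Kcne4, Kcnj12 and Kcns1 and the array B probe set of Kcna6 are among these 40. Each has its median ratio at 1. With all O4+ arrays above 1, no A2B5+ array can then be above it, so the lack of overlap is no separate support. A further 10 were at or above 1 on A2B5+ arrays only, and having passed through the population where they are high, these had to differ. They are 2 probe sets of Kcnd2 and 1 each of Kcna2 and Kcnip1 (array B), Kcnab1, Kcne3, Kcnj15, Kcnj16, Kcnk2 and Kcnk6. The other probe sets called lower passed mostly through A2B5+ arrays, at or above 1 on all of these but 1 and on 1 O4+ array. They are those of Kcna5, Kcng2, Kcnj5 and Kcnk13, the array A one of Kcnc4, the remaining one of Kcnd2 and 2 of Kcnd3. So the count of lower genes supports nothing about the members.

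**Figure D1:**
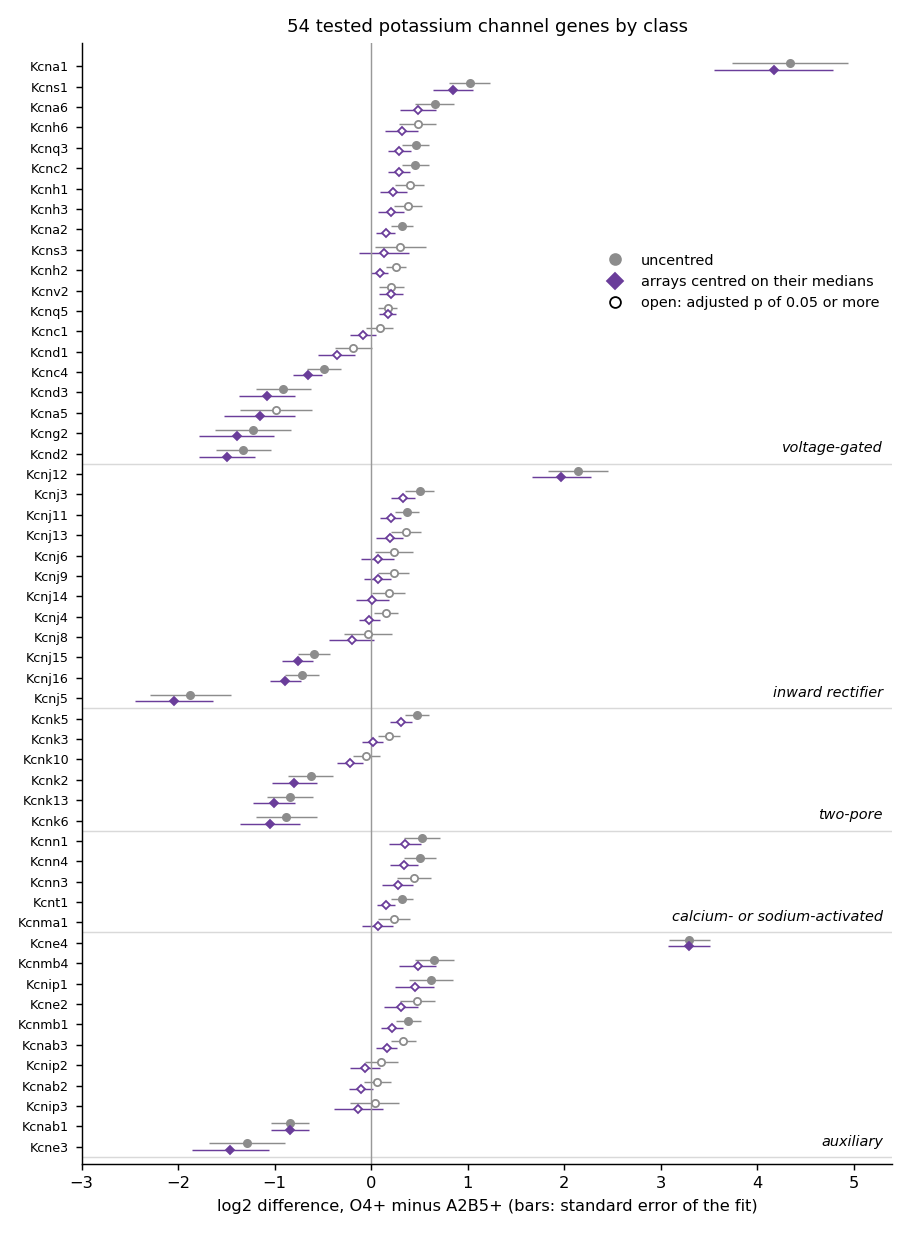
Log2 differences, O4+ minus A2B5+, of the 54 tested Kcn genes by class, uncentred (grey circles) and with arrays centred on their medians (purple diamonds); bars are standard errors of the fit and open symbols have an adjusted p of 0.05 or more. Kcna1, Kcne4, Kcnj12 and Kcns1 stand at the right and keep filled symbols on both scales, while the smaller grey rises lose their fill on centring.

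The labels of the sorts were checked against marker lists. All 7 tested myelin genes were higher in O4+ arrays. Their list means ran from -1.04 to -0.51 over A2B5+ arrays and from 3.77 to 4.38 over O4+ arrays. Like every list mean below, these are of array A genes on centred arrays. Of 5 tested progenitor markers 4 were lower, while Lhfpl3, read from array B, was higher at 1.60 ± 0.56 (limma adjusted p = 0.039). Markers of other cell types were lower in O4+ too: 6 of 11 neuronal (3 higher), 6 of 10 astrocyte and radial glia, 7 of 7 endothelial and 8 of 8 microglial genes, while of 7 mural genes 1 was lower and 2 higher. Within A2B5+ arrays these lists varied, with replicate 3 highest in the neuronal and astrocyte list means (1.16 and 0.91) and replicate 5 lowest in both (-0.21 and -0.07). One O4+ array, replicate 2 on array A, stood apart in 7 of the Kcn genes. With the O4+ arrays numbered 2 of both types left out, 7 genes were called higher, 10 lower, and 14 on both scales. O4+ numbers do not match between the types, so these are arrays of different samples.

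Among the voltage-gated genes, 20 of 31 were tested, 6 were called higher and 4 lower, beside 28.8% and 17.8% of all genes, and on both scales 2 and 4, beside 18.7% and 17.6%. The Kv1 family held the largest rise. Kcna1 encodes a low-threshold delayed rectifier best known from the juxtaparanodes of myelinated axons. Its ratios were 0.844, 0.277, 1, 0.392 and 0.713 in A2B5+ replicates 1 to 5, and 17.9, 2.98, 16.01 and 22.1 in O4+ replicates 1 to 4. All O4+ arrays lay above all A2B5+ arrays, and O4+ replicate 2 was well below the other O4+ arrays. The difference was 4.34 ± 0.60 (SE, limma adjusted p = 3.5e-04) and 4.17 on centred arrays (adjusted p = 6.5e-04). Its standard error was the highest among the 54 genes. Without O4+ replicate 2 it was 5.00 ± 0.40. All A2B5+ ratios were at or below 1, and with ratios below 1 set to 1 the difference was 3.55.

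Kcna6 encodes another Kv1 delayed rectifier, and its genome neighbour is Kcna1. Its array B probe set gave A2B5+ ratios of 0.945, 1, 0.96, 0.94 and 0.978, and O4+ ratios of 8.56, 16.6, 13.9 and 11.5. The groups were far apart and the A2B5+ arrays nearly level. The difference was 3.67 ± 0.17 (limma on array B probe sets, adjusted p = 4.3e-06), or 12.7-fold. The tested array A probe set of the same gene gave A2B5+ ratios of 0.63, 0.77, 0.693, 1 and 0.977, and O4+ ratios of 1.06, 1.81, 1.06 and 1.25. Here the groups did not overlap either, but the difference was only 0.66 ± 0.21 and lost its call on centring (adjusted p = 0.026 and 0.060 per gene). Since array A stood for the gene, Kcna6 was not among the genes called on both scales.

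Kcna5, a further Kv1 delayed rectifier on the other side of Kcna1 in the genome, had ratios of 0.985, 2.54, 1, 1.12 and 2.50 in A2B5+ and 0.508, 1.23, 0.628 and 0.783 in O4+ replicates. The groups overlapped through O4+ replicate 2. Its difference was -0.99 ± 0.37 (limma adjusted p = 0.052) uncentred and -1.16 (adjusted p = 0.032) centred, and -1.23 ± 0.38 (adjusted p = 0.028) without that array. It was not called in 6 of the 9 fits that left out 1 replicate, at -1.09 to -0.79 (adjusted p = 0.056 to 0.14). So the 3 adjacent genes Kcna5, Kcna1 and Kcna6 did not share a direction.

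Kcna2, which forms channels with Kcna1 in axons, gave opposite signs on the array types. On array A its ratios were 0.783, 0.818, 0.896, 1 and 0.991 in A2B5+ and 1.06, 1.18, 1.09 and 1.13 in O4+ replicates, a small step of 0.32 ± 0.12 (limma per gene, adjusted p = 0.048), and it was not called on centred arrays (0.15, adjusted p = 0.25). On array B they were 1.01, 1.02, 2.12, 1.86 and 1 in A2B5+ and 0.583, 0.816, 0.72 and 0.316 in O4+ replicates. The array B probe set passed the filter through A2B5+ arrays alone, so its groups had to stand apart with O4+ below. The array B difference was -1.21 ± 0.35 (adjusted p = 0.035). This call was lost without A2B5+ replicate 3 or 4 or O4+ replicate 1, 3 or 4, at -1.31 to -0.92 (adjusted p = 0.054 to 0.073). A2B5+ replicates 3 and 4, the highest in this probe set, were also the highest in the neuronal and in the astrocyte and radial glia marker means, whose part in the result was not tested. Kcna3 and Kcna4 were not tested.

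**Figure D2:**
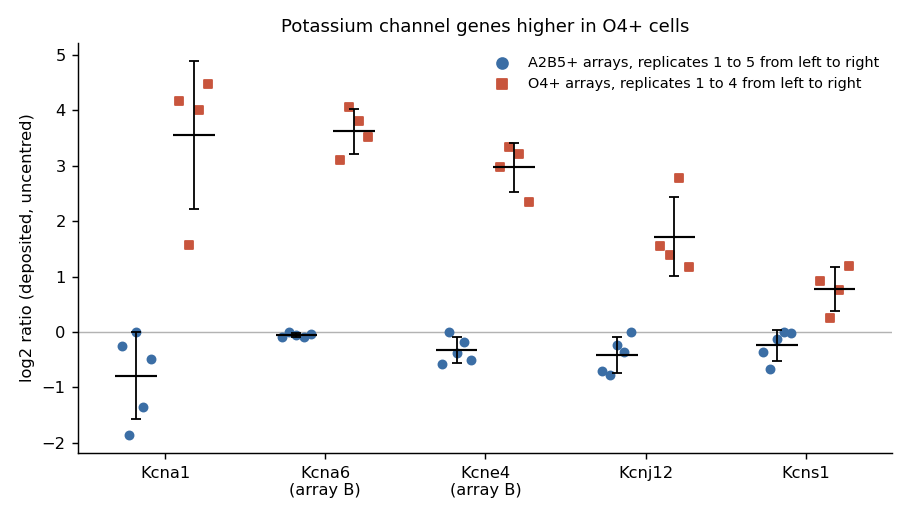
Log2 ratio on each array (points, replicates from left to right) with the mean and SD of each population for the 4 Kcn genes called higher on both scales and the array B probe set of Kcna6. O4+ arrays lie above A2B5+ arrays in all 5, and in Kcna1 O4+ replicate 2 lies far below the other O4+ arrays.

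Of the 3 Kv4 genes, Kcnd2 and Kcnd3 fell and Kcnd1 did not pass the test. Kcnd2 encodes the main pore subunit of the somatodendritic A-type current, and all 3 of its probe sets were lower in O4+ cells, at -1.34 ± 0.32 and -1.32 ± 0.35 on array A and -1.88 ± 0.40 on array B (limma adjusted p = 0.0074, 0.013 and 0.010). The array B ratios were 1.96, 1.81, 4.32, 3.54 and 1 in A2B5+ and 0.649, 0.794, 0.472 and 0.543 in O4+ replicates. No array of one population reached the other there, but this probe set passed the filter through A2B5+ arrays alone and so had to lie lower in O4+. The same holds for the array A probe set with 1.29, 1.35, 3.18, 2.39 and 1 in A2B5+ and 0.52, 0.744, 0.709 and 0.709 in O4+ replicates. The other had 1.43, 2.09, 2.49, 0.981 and 1 in A2B5+ and 0.47, 1.12, 0.497 and 0.485 in O4+ replicates. Its groups overlapped through O4+ replicate 2. As the filter bore on the direction, the agreement of the 3 probe sets is no separate support. Per gene the difference was -1.33 ± 0.29 (adjusted p = 0.0045), and with ratios below 1 set to 1 it was -0.64 and not called (adjusted p = 0.084).

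Kcnd3, a second A-type subunit, was lower on 2 of its 3 probe sets. One array A probe set had ratios of 3.90, 2.13, 7.02, 6.12 and 0.99 in A2B5+ and 0.622, 0.512, 1 and 0.733 in O4+ replicates, a difference of -2.22 ± 0.52 (limma adjusted p = 0.0067). A2B5+ replicate 5 lay at the level of O4+ arrays and the other 4 above it. The array B probe set showed the same layout, at -2.16 ± 0.49 (adjusted p = 0.013), and the other array A probe set gave 0.39 ± 0.19 (adjusted p = 0.10). The mean of the array A pair was -0.91 ± 0.28 (adjusted p = 0.025), and this call was lost without A2B5+ replicate 3 or 4 or O4+ replicate 1, 2 or 4, at -0.91 to -0.76 (adjusted p = 0.05 to 0.061). Kcnd1, the third A-type subunit, did not pass the test, at -0.19 ± 0.19 (adjusted p = 0.45).

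Kcns1 and Kcng2, both silent subunits, went in opposite directions. Kcns1 had ratios of 0.777, 0.63, 0.917, 1 and 0.982 in A2B5+ and 1.90, 1.19, 1.69 and 2.29 in O4+ replicates. O4+ arrays were all above A2B5+ arrays, and the difference was 1.02 ± 0.21 (limma adjusted p = 0.0036), and 0.85 centred (adjusted p = 0.010). Kcng2, which joins Kv2 channels, had 1.35, 1.76, 0.93, 1 and 3.28 in A2B5+ and 0.662, 1.04, 0.639 and 0.369 in O4+ replicates. The groups overlapped at O4+ replicate 2, and the difference of -1.23 ± 0.40 (adjusted p = 0.030) lost its call without A2B5+ replicate 2 or O4+ replicate 1, 3 or 4, at -1.25 to -0.96 (adjusted p = 0.056 to 0.082). With the 2 further Kcng2 probe sets that did not pass the filter averaged in, it was -0.30 (adjusted p = 0.17).

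Kcnc4, a fast-inactivating Kv3 subunit, had 1.06, 0.998, 1.03, 1.34 and 1.39 in A2B5+ and 0.694, 0.961, 1 and 0.681 in O4+ replicates of array A, with an overlap of O4+ replicate 3 and A2B5+ replicate 2. The difference was -0.49 ± 0.17 (limma adjusted p = 0.041). It lost its call when any of 6 arrays was left out, A2B5+ replicates 1, 3, 4 and 5 and O4+ replicates 1 and 4, at -0.53 to -0.40 (adjusted p = 0.051 to 0.11), and its array B probe set gave 0.06 ± 0.11 (adjusted p = 0.71). Of the other Kv3 genes, which serve fast-firing neurons, Kcnc2 was called higher at 0.46 ± 0.14 uncentred only and Kcnc1 was at 0.09 ± 0.14. The Kv7 genes Kcnq3 and Kcnq5, subunits of the M current, were at 0.46 ± 0.14 (called uncentred only) and 0.17 ± 0.10. Kcnh1, Kcnh2, Kcnh3 and Kcnh6 of the EAG, ERG and ELK group lay between 0.26 and 0.48 and none was called, and the silent subunits Kcns3 and Kcnv2 were at 0.30 ± 0.26 and 0.21 ± 0.13.

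Of 15 inward rectifier genes, 12 were tested, with 3 called higher and 3 lower, beside 28.8% and 17.8% of all genes, and on both scales 1 and 3, beside 18.7% and 17.6%. Kcnj12 encodes a strong rectifier of the Kir2 family. Its ratios were 0.614, 0.584, 0.848, 0.777 and 1 in A2B5+ and 2.93, 2.63, 6.82 and 2.26 in O4+ replicates. Every O4+ array was above 2, for a difference of 2.14 ± 0.31 (limma adjusted p = 4.7e-04), or 4.40-fold. The other tested Kir2 genes, Kcnj4 and Kcnj14, were at 0.15 ± 0.13 and 0.18 ± 0.17 and were not called.

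Kcnj5, a subunit of G protein-gated channels, had the most negative of the 54 differences per gene. Its ratios were 0.735, 2.07, 1.71, 2.45 and 2.67 in A2B5+ and 0.408, 1, 0.361 and 0.361 in O4+ replicates. A2B5+ replicate 1 lay below O4+ replicate 2, and the other arrays were apart. The difference was -1.88 ± 0.42 (limma adjusted p = 0.0056), and -2.23 ± 0.38 without O4+ replicate 2. With its second probe set, which did not pass the filter, averaged in, it was -0.80 (adjusted p = 0.025), smaller than that of Kcnd2, and with array B used first Kcnd2 and Kcnd3 were at -1.88 and -2.16. Its channel partners gave no call on both scales: Kcnj3 was at 0.50 ± 0.15 (called uncentred only), Kcnj6 at 0.24 ± 0.19 and Kcnj9 at 0.24 ± 0.16.

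Kcnj16 encodes a subunit that works in heteromers with the astrocyte and oligodendrocyte rectifier Kcnj10, and Kcnj15 is close kin of Kcnj10. One Kcnj16 probe set had ratios of 1.18, 1.08, 1.85, 1.09 and 1 in A2B5+ and 0.29, 0.68, 0.38 and 0.48 in O4+ replicates, all O4+ below all A2B5+, a difference of -1.47 ± 0.26 (limma adjusted p = 0.0014). The other gave 0.03 ± 0.20 (adjusted p = 0.91), and the mean of both was -0.72 ± 0.18 (adjusted p = 0.0086). One Kcnj15 probe set had 1, 2.63, 1.19, 1.22 and 1.39 in A2B5+ and 0.35, 0.63, 0.682 and 0.526 in O4+ replicates, again with no overlap, a difference of -1.40 ± 0.29 (adjusted p = 0.0037). Its second probe set was at 0.21 ± 0.11 (adjusted p = 0.15) and the mean at -0.59 ± 0.17 (adjusted p = 0.016). So for both genes 1 probe set fell and the other did not pass the test, and the per-gene difference mixes them. The probe sets that fell passed the filter through A2B5+ arrays alone, so their lack of overlap is no separate support.

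Beside these glial rectifiers, the astrocyte and radial glia markers ran from -0.07 to 0.91 in list mean over A2B5+ arrays and from -0.90 to -0.42 over O4+ arrays, with 6 of 10 lower. Their part in the fall of Kcnj16 and Kcnj15 was not tested. The KATP pore subunits were Kcnj8, at -0.03 ± 0.24 (limma adjusted p = 0.92), and Kcnj11, at 0.37 ± 0.13 (adjusted p = 0.039, not called on centred arrays). Kcnj13, an epithelial rectifier, was at 0.36 ± 0.15 and not called.

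Of 11 two-pore genes, 6 were tested, 1 was called higher and 3 lower, beside 28.8% and 17.8% of all genes, and on both scales 0 and 3, beside 18.7% and 17.6%. The median difference of the 6 was -0.34 uncentred and -0.51 centred, the lowest among the 5 classes on both scales. This rank depends on the filter, which Kcnk2 and Kcnk6 passed through A2B5+ arrays alone and Kcnk13 mostly through them. Of the genes not tested, Kcnk1, Kcnk4, Kcnk9 and Kcnk15 were at 0.33, 0.31, 0.40 and 0.29 uncentred, and Kcnk12 was at -0.45. So the rank is no trait of the class. Kcnk2 encodes a stretch- and lipid-sensitive resting channel. Its ratios were 1.35, 1.09, 2.17, 1.93 and 1 in A2B5+ and 0.957, 0.905, 0.93 and 0.93 in O4+ replicates. O4+ arrays were tightly grouped just below the lowest A2B5+ array, and A2B5+ replicates 3 and 4 were the highest. Having passed the filter through A2B5+ arrays alone, this probe set had to lie lower in O4+ arrays. The difference was -0.63 ± 0.23 (limma adjusted p = 0.047). The call was lost when any of 7 arrays was left out, A2B5+ replicates 1, 3 and 4 and each O4+ replicate, at -0.65 to -0.48 (adjusted p = 0.069 to 0.096).

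Kcnk6, a relative of the weak inward rectifier Kcnk1, had 1, 2.18, 1.02, 1.495 and 3.12 in A2B5+ and 0.885, 0.811, 0.889 and 0.881 in O4+ replicates. The fall of -0.88 ± 0.32 (limma adjusted p = 0.044) lay mostly in A2B5+ replicates 2, 4 and 5, and the call was lost without each of these or each O4+ replicate, at -0.91 to -0.64 (adjusted p = 0.055 to 0.097). With its second probe set, which did not pass the filter, averaged in, it was -0.32 (adjusted p = 0.21). Kcnk13, a resting channel well known from microglia, had 0.895, 1.59, 1, 1.45 and 1.62 in A2B5+ and 0.64, 1.03, 0.627 and 0.618 in O4+ replicates. O4+ replicate 2 reached into the A2B5+ range, and the difference of -0.84 ± 0.23 (adjusted p = 0.016) was -1.02 ± 0.22 without it. All 8 microglial markers were lower in O4+ cells. Their list mean was lowest in A2B5+ replicate 1 (0.02, range of the 5 up to 0.95), the array with the lowest A2B5+ ratio of Kcnk13, and among O4+ arrays it was highest in replicate 2 (-0.30, range of the 4 down to -1.65), the array with the highest O4+ ratio. The mural list mean was likewise lowest among A2B5+ arrays in replicate 1 (-0.20) and highest among O4+ arrays in replicate 2 (0.14). The part of these cell types in the result was not tested. Kcnk5, an acid-sensitive channel, was called higher uncentred only, at 0.48 ± 0.12, and Kcnk3 and Kcnk10 were at 0.18 ± 0.11 and -0.05 ± 0.14.

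All 5 calcium- or sodium-activated genes were tested and none was called on both scales. The small-conductance channels Kcnn1 and Kcnn3 were at 0.52 ± 0.19 and 0.44 ± 0.18, the intermediate-conductance channel Kcnn4 at 0.51 ± 0.16, the sodium-activated Kcnt1 at 0.32 ± 0.11 and the large-conductance BK channel Kcnma1 at 0.24 ± 0.16. Kcnn1, Kcnn4 and Kcnt1 were called higher, but on uncentred arrays only. One Kcnma1 probe set spread widely within each population, from 0.438 to 1.62 in A2B5+ and from 0.428 to 1.88 in O4+ arrays.

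Of 13 auxiliary genes, 11 were tested, 4 were called higher and 2 lower, beside 28.8% and 17.8% of all genes, and on both scales 1 and 2, beside 18.7% and 17.6%. Kcne4, read from array B, had ratios of 0.67, 1, 0.771, 0.887 and 0.706 in A2B5+ and 7.88, 10.2, 9.31 and 5.05 in O4+ replicates. All O4+ arrays were at least 5.05. The difference was 3.29 ± 0.21 (limma adjusted p = 3.5e-06), or 9.81-fold, and 3.29 centred. With ratios below 1 set to 1 it was 2.97. Kcne3, from the same family of single-span subunits, went the other way. Its ratios were 2.08, 2.92, 1, 1.13 and 1.54 in A2B5+ and 0.319, 0.909, 0.961 and 0.666 in O4+ replicates, with no overlap, a difference of -1.29 ± 0.39 (adjusted p = 0.023) that lost its call without A2B5+ replicate 1 or O4+ replicate 1, at -1.20 to -0.94 (adjusted p = 0.051 to 0.055). The Kcne3 probe set passed the filter through A2B5+ arrays alone, so its groups had to stand apart. Kcne2 was at 0.48 ± 0.18 and not called.

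Kcnab1, a cytoplasmic beta subunit that speeds inactivation of Kv1 channels, was read from array B, with 1.201, 1.65, 1.74, 1.05 and 1 in A2B5+ and 0.692, 0.63, 0.715 and 0.872 in O4+ replicates. All O4+ arrays were below all A2B5+ arrays, at -0.84 ± 0.20 (limma adjusted p = 0.0067). The probe set passed the filter through A2B5+ arrays alone. With no filter its array A probe set stands for the gene, and the sign turns to 0.32 (adjusted p = 0.030). The other beta subunits were Kcnab2, at 0.06 ± 0.14, and Kcnab3, at 0.33 ± 0.13, neither called. Of the Kv4-binding calcium sensors, Kcnip2 and Kcnip3 were at 0.10 ± 0.17 and 0.04 ± 0.26, and Kcnip1 was split between array types. Its array A probe set had 0.645, 0.712, 0.879, 1 and 0.974 in A2B5+ and 1.06, 2.03, 1.06 and 1.17 in O4+ replicates (0.62 ± 0.23, adjusted p = 0.044, not called centred), and its array B probe set 1.66, 1.17, 2.69, 1.90 and 1 in A2B5+ and 0.769, 0.992, 0.866 and 0.794 in O4+ replicates (-0.90 ± 0.27, adjusted p = 0.043). It was the single Kcn gene with probe sets called in opposite directions, and the array B probe set passed the filter through A2B5+ arrays alone. The array A call was lost without A2B5+ replicate 1, 2 or 3 or O4+ replicate 2 or 4 (adjusted p = 0.067 to 0.094), and the array B call without A2B5+ replicate 1, 3 or 4 or any O4+ replicate (adjusted p = 0.055 to 0.10). The BK beta subunits Kcnmb1 and Kcnmb4 were called higher uncentred only, at 0.39 ± 0.13 and 0.65 ± 0.20.

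**Figure D3:**
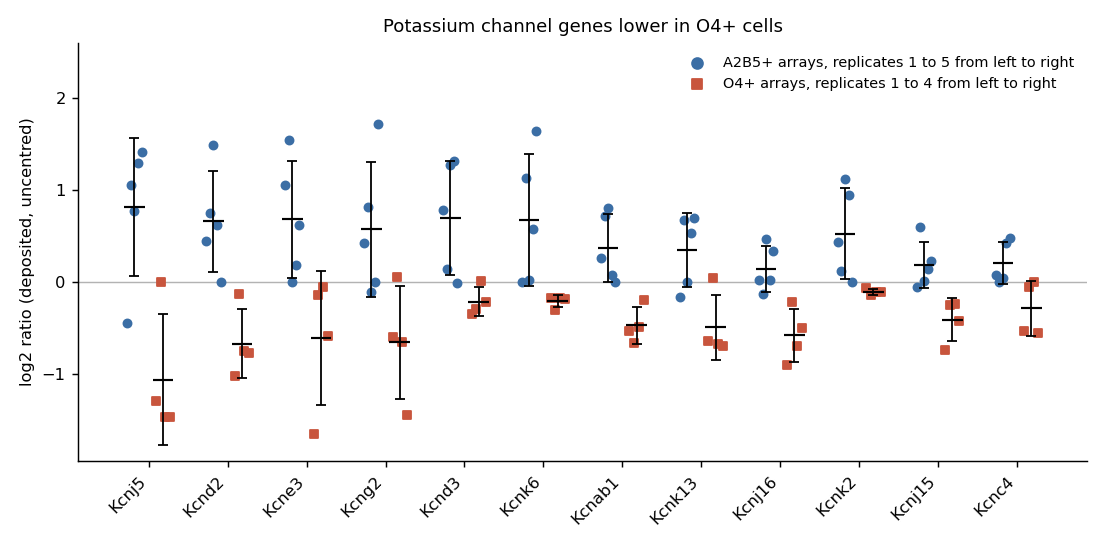
Log2 ratio on each array (points, replicates from left to right) with the mean and SD of each population for the 12 Kcn genes called lower on both scales, 1 row per gene. A2B5+ arrays spread widely in most genes, from below 0 up to 1.7 in Kcng2, and some of them meet the O4+ arrays.

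The A2B5+ replicates did not rank alike among the 12 lower genes. With arrays centred, replicate 3 was the highest A2B5+ array for 5 of them (Kcnab1, Kcnd2, Kcnd3, Kcnj16 and Kcnk2), replicate 5 for 4 (Kcnc4, Kcng2, Kcnj5 and Kcnk6) and replicate 2 for 3 (Kcne3, Kcnj15 and Kcnk13). Replicate 5 was also the lowest A2B5+ array for 4 genes, Kcnab1, Kcnd2, Kcnd3 and Kcnk2, in each of which replicate 3 was the highest. This is the order of the neuronal marker mean, which was 1.16 in replicate 3 and -0.21 in replicate 5, and of the astrocyte and radial glia mean. The progenitor marker mean, which does not hold the array B gene Lhfpl3, was likewise lowest in replicate 5, at -0.10, and 1.19 in replicate 3. Replicate 1 was the lowest A2B5+ array for Kcnj15, Kcnj5, Kcnk13 and Kcnk6, as it was for the microglial and mural means. The part of these cell types in the differences was not tested. With ratios below 1 set to 1, 1 of the 12 lower genes kept its call by limma, Kcnj5 at -0.91 (adjusted p = 0.034). The others lay between -0.80 for Kcnd3 and -0.18 for Kcnj16 (adjusted p = 0.057 to 0.27). Lower calls were also far fewer over all genes in that setting, so this loss was not particular to the 12 genes.

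The 13 genes called higher on uncentred arrays only had small differences, from 0.32 to 0.66, and all were read from array A. They were Kcna2, Kcna6, Kcnc2, Kcnip1, Kcnj3, Kcnj11, Kcnk5, Kcnmb1, Kcnmb4, Kcnn1, Kcnn4, Kcnq3 and Kcnt1. In all 13 the O4+ arrays lay above the A2B5+ arrays, and in 4 of them this held on centred arrays. Probe sets whose 9 ratios had a median below 1, the dim probe sets of the array, moved with these genes. On array A their median log2 ratio was -0.85 in A2B5+ and -0.52 in O4+ arrays, a shift of 0.33, against 0.07 on array B. Relative to the A2B5+ mean it was 0.25, 0.46, 0.29 and 0.31 in O4+ replicates 1 to 4, where the median of the 13 genes was 0.35, 0.70, 0.36 and 0.38, and both were highest in replicate 2. With the dim pattern subtracted from each array, 0 of the 13 genes were called by limma. Of all Kcn genes 4 were then called higher and 14 lower, beside 13% and 25.4% of all genes.

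**Figure D4:**
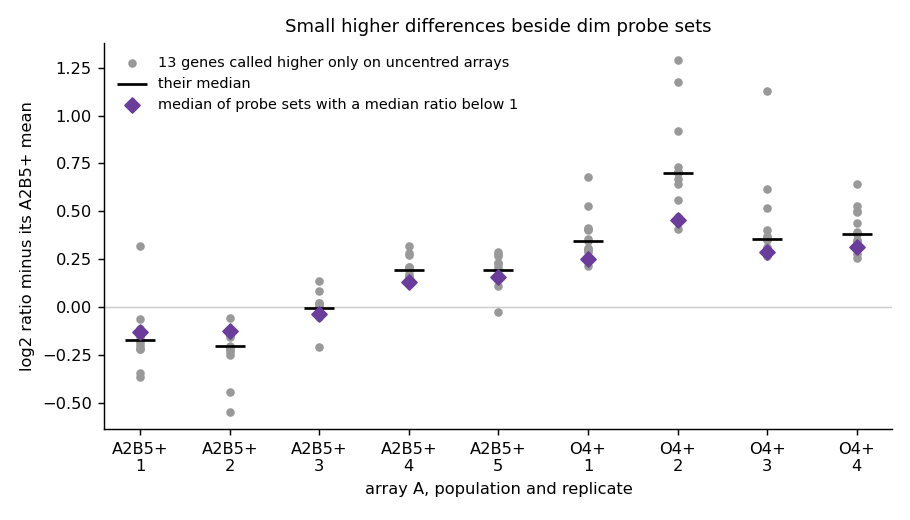
Log2 ratio minus its A2B5+ mean on each array of type A for the 13 Kcn genes called higher only without centring (grey points, black bars for their median) and for the median of dim probe sets (purple diamonds). Bars and diamonds both lie higher on every O4+ array than on any A2B5+ array, and both are highest at O4+ replicate 2. Among A2B5+ arrays the bar is lowest at replicate 2 and the diamond at replicate 1.

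Of the 54 genes, 16 had several tested probe sets, and in 6 these differed by more than 1 on the log2 scale. They were Kcna2, Kcna6, Kcnd3, Kcnip1, Kcnj15 and Kcnj16. On centred arrays 8 of the 16 had a called and an uncalled probe set and 0 had calls in opposite directions. On array A 16 of 64 probe sets were called higher and 13 lower, beside 32.5% and 14.7% of all probe sets there, and centred 4 and 13, beside 18.6% and 17.9%. On array B 2 of 12 were called higher, those of Kcna6 and Kcne4, and 5 lower, those of Kcna2, Kcnab1, Kcnd2, Kcnd3 and Kcnip1, beside 9.93% and 13.8%, and the counts were the same centred, beside 9.99% and 14%. Within Kcnq3, one probe set rose by 0.69 ± 0.19 and kept its call centred (adjusted p = 0.043), and the other was at 0.23 ± 0.12.

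**Figure D5:**
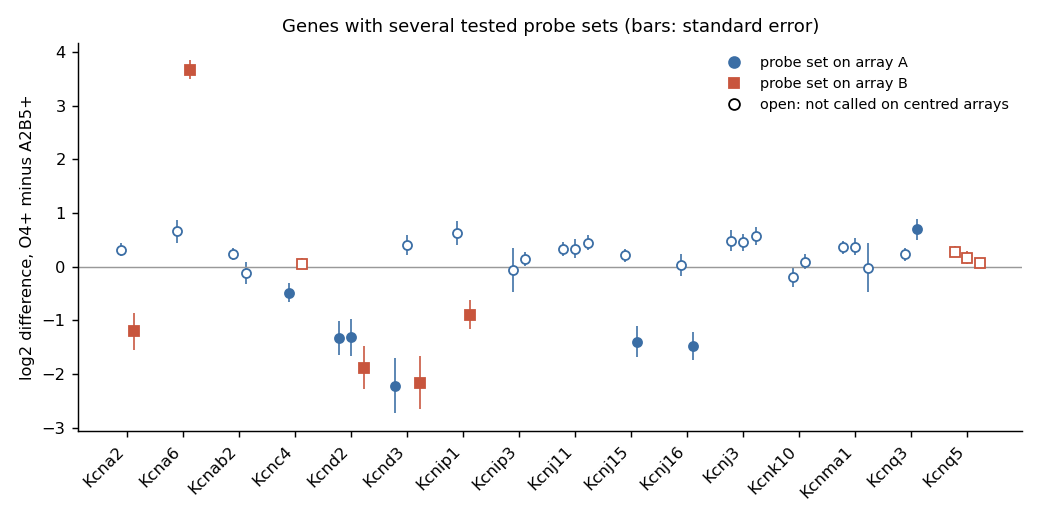
Log2 differences, O4+ minus A2B5+, with standard errors for each tested probe set of the 16 Kcn genes with several, from array A (blue circles) and array B (red squares); open symbols were not called on centred arrays. The array B probe set of Kcna6 stands at 3.67 against 0.66 on array A, and the array B probe sets of Kcna2 and Kcnip1 lie below 0.

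The 21 genes that were not tested comprised Kcnj10 and Kcnk1, known as astrocyte channels, and Kcna3, Kcna4, Kcnb2, Kcne1, Kcng3, Kcnh4, Kcnh5, Kcnh7, Kcnh8, Kcnip4, Kcnj1, Kcnj2, Kcnk4, Kcnk9, Kcnk12, Kcnk15, Kcnq1, Kcns2 and Kcnv1. Their ratios ran from 0.228 to 1.25, and 4 of them reached 1 on some array. For 17 the SD within populations, after subtracting the pattern of dim probe sets, was below 0.1. This SD leaves out any difference between the populations, so it shows only that replicates of a population followed that pattern closely. The uncentred differences of the 21 genes ran from -0.45 to 0.54, with a median of 0.33. Kcnj10 had ratios of 0.701, 0.747, 0.745, 0.849 and 0.873 in A2B5+ and 0.936, 1.203, 0.958 and 0.972 in O4+ replicates. Kcnk1 had ratios of 0.535, 0.533, 0.586, 0.648 and 0.66 in A2B5+ and 0.714, 0.784, 0.72 and 0.751 in O4+ replicates. Both were higher on every O4+ array than on any A2B5+ array, by 0.38 and 0.33, beside the 0.33 by which dim probe sets as a whole were shifted.

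Among 54 genes that work with potassium channels, 39 were tested, of which 12 were called higher and 8 lower, beside 28.8% and 17.8% of all genes, and on both scales 8 and 8, beside 18.7% and 17.6%. Proteins that gather Kv1 channels at juxtaparanodes, or are related to those that do, gave 6 higher and 0 lower of 13 tested, and on both scales 3 and 0. These were Lgi3, a secreted ligand of the Adam22 family, at 3.73 ± 0.22, Adam11, a receptor of that family, at 3.43 ± 0.27, and the scaffold Dlg1 at 1.03 ± 0.12 (limma adjusted p = 2.1e-06, 1.2e-05 and 1.3e-04). Cntnap2 and Cntn2, the core adhesion proteins of the juxtaparanode, were at -0.36 ± 0.32 and 0.11 ± 0.13 and were not called. The transmembrane partners of Kv4 channels were split, with Dpp6 at -1.23 ± 0.28 (adjusted p = 0.0060) and Dpp10 at 2.52 ± 0.50 (adjusted p = 0.0028).

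Of 9 tested anchors and other auxiliary proteins, Ank3 was higher at 2.53 ± 0.24 (limma adjusted p = 3.4e-05), and Ank2 and the ubiquitin ligase Nedd4l, which limits surface channels, were lower at -0.72 ± 0.23 and -2.36 ± 0.19 (adjusted p = 0.031 and 1.1e-05). Of 7 tested sodium-potassium pump genes, 4 were lower and 0 higher on both scales, beside 17.6% and 18.7% of all genes: Atp1b1 at -0.64 ± 0.20, Atp1b3 at -0.64 ± 0.16, Fxyd1 at -0.76 ± 0.27 and Fxyd5 at -1.54 ± 0.32 (adjusted p = 0.025, 0.0095, 0.040 and 0.0035). Potassium can also enter cells with chloride. Of 7 tested cotransporter genes, the uptake carrier Slc12a2 and its activating kinase Stk39 were higher at 2.17 ± 0.20 and 1.98 ± 0.19 (adjusted p = 3.3e-05 and 4.4e-05). Of the other carriers, Slc12a4 was higher at 0.87 ± 0.20 (adjusted p = 0.0062) and Slc12a7 was lower at -1.60 ± 0.22 (adjusted p = 3.5e-04). The sulfonylurea receptor Abcc9, partner of the KATP subunits, was at -0.71 ± 0.41 and not called.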

How the data were processed

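The deposited values are linear ratios per probe set. The submitters' processing notes name GCRMA with no version. The sources used here do not record how the authors turned its output into ratios. Ratios were converted to log2 without an offset. Of 15866 and 15276 probe sets that are not controls, 13098 and 11136 passed the filter on arrays A and B. Gene names came from the platform annotation table, and all 125 Kcn probe sets matched RefSeq gene identifiers, and 0 symbols changed.

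Limma 3.58.1 (lmFit, eBayes, two-sided) in R 4.3.3 compared the populations, with Benjamini-Hochberg adjustment over all genes or, for probe sets, within an array type. Tested on simulated data of 11982 genes, the fit recovered 49% of changes of 1 and 91% of changes of 2 on the log2 scale, with 12 false among 152 calls. The simulation changed 100 genes at each size and drew noise independently for each gene. It held no shift of whole arrays, so these rates do not cover calls that such a shift can make. Same-numbered A2B5+ and O4+ samples correlated at 0.02 to 0.31 on array A and -0.20 to 0.24 on array B. Samples with different numbers were not correlated for comparison, so these values cannot show whether the numbers pair samples. The numbers were not used as pairs in the main fit. O4+ numbers did not match between array types. P-values treat litters as independent, and whether populations shared litters is not stated. Values on every array are given for genes called on both scales and for Kcnj10, Kcnj16, Kcna1, Kcna2, Kcnk1 and Kcnk2. The members and lists were chosen with earlier results of these data known.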

Additional observations from a re-analysis of the deposited data

Results flagged for a closer look

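Within groups of 4 or 5 arrays, the highest or lowest value was compared with its nearest neighbour relative to the group's range (Dixon's criterion), over 66 groups. Chance flags about 1 in 20 groups, and 7 were found, all at O4+ replicate 2 of array A. Its log2 ratio was the lowest of the 4 for Kcna1, at 1.58 with the nearest at 4.00, and for Kcnk6, at -0.30 with the nearest at -0.18. It was the highest for Kcnip1 (1.02, nearest 0.23), Kcnj11 (0.38, nearest 0.13), Kcnj5 (0, nearest -1.29), Kcnk13 (0.043, nearest -0.64) and Kcnmb1 (0.55, nearest 0.14). The median of dim probe sets was also highest on this array, at -0.39 against -0.60, -0.56 and -0.54 on the other O4+ arrays. With the O4+ arrays numbered 2 of both types left out, the difference was 5.00 for Kcna1, 0.40 for Kcnip1, 0.31 for Kcnj11, -2.23 for Kcnj5, -1.02 for Kcnk13, -0.85 for Kcnk6 and 0.28 for Kcnmb1, and the limma calls of Kcnip1, Kcnj11, Kcnk6 and Kcnmb1 were lost (adjusted p = 0.086, 0.082, 0.085 and 0.077).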

How the results depend on the processing

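The 17 higher calls became 4 with centred arrays, 4 with the dim pattern subtracted, 42 of 75 genes with no filter, 10 with ratios below 1 set to 1, and 6 to 21 when one replicate was left out (6 without A2B5+ replicate 2, 7 without A2B5+ replicate 1 or O4+ replicate 2, 9 without A2B5+ replicate 3, 11 without O4+ replicate 4). The 12 lower calls became 1 with ratios below 1 set to 1, and 6 to 10 when 1 replicate was left out. They were 6 without O4+ replicate 1 and 7 without O4+ replicate 4. Shares of all genes moved too. Higher calls, 28.8% of all genes in the main fit, were 18.7% centred and 13% with the dim pattern subtracted. Their share was larger with no filter and smaller with ratios below 1 set to 1. Lower calls, 17.8% of all genes in the main fit, were far fewer with ratios below 1 set to 1. So the loss of lower calls in that setting was not particular to the Kcn genes. The 16 calls on both scales became 5 with ratios below 1 set to 1 (Kcna1, Kcne4, Kcnj12, Kcns1 and Kcnj5), and 10 to 15 when one replicate was left out (10 without O4+ replicate 1), and 10 of the 16 were called in each of those 9 fits. With the replicate number as a block, over replicates 1 to 4, there were 11 higher, 11 lower and 16 on both scales. Other counts stayed within 1.5 times. Signs turned for Kcna2 (-0.0082) and Kcnt1 (-0.0059) with the dim pattern subtracted, for Kcnab1 (0.32) with no filter, where its array A probe set stands for it, and with array B first for Kcna2 (-1.21), Kcnc4 (0.057) and Kcnip1 (-0.90). Apart from probe sets standing in for others, the cause was not tested. A left-out replicate is its number on both array types, which for O4+ are different samples. With no filter the calls of Kcng2 (-0.30, adjusted p = 0.17) and Kcnk6 (-0.32, adjusted p = 0.21) were lost, and Kcnj5 was -0.80. The number of arrays limits the precision, with standard errors of 0.10 to 0.60.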
